A study of Mus musculus with 4 samples.

Results

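The 10 genes of milk secretion described here were followed through the mammary transcriptome of mice with and without *miR-21*. They are the 5 casein genes *Csn1s1*, *Csn1s2a*, *Csn1s2b*, *Csn2* and *Csn3*, the whey protein genes *Wap* and *Lalba*, and the milk fat globule genes *Xdh*, *Btn1a1* and *Mfge8*. They were chosen by name, and each matched a single locus among the 22483 loci of the deposited table that carry a gene name (30506 loci in all). None of the 10 loci was merged with a second gene, and no other annotated gene overlapped any of them.

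Caseins are the main proteins of rodent milk. They are secreted by luminal epithelial cells as calcium phosphate micelles, with kappa-casein at the micelle surface, and prolactin induces their genes in pregnancy through STAT5. Whey proteins stay in solution, and milk fat leaves the cell as droplets wrapped in apical membrane, for which xanthine dehydrogenase and butyrophilin are needed. Outside pregnancy and lactation the ducts lie in a pad of fat, and milk protein genes are normally far below their lactation levels.

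RNA-Seq was made on poly(A) RNA of mammary tissue from 4 mice, 2 of genotype *miR-21+/+* and 2 of genotype *miR-21-/-*, to look for targets of the microRNA. The mice were 2 months old, and virgin as the study describes the glands compared, on a mixed 129SV::FVB/N::C57BL/6 background, and no other allele or treatment is given. The deletion was present in the whole animal, so the fat, stroma, lymphoid and epithelial cells of the *miR-21-/-* tissue all lacked the microRNA. Whether mice of the 2 genotypes were littermates and their stage of the estrous cycle are not given in the sources used here. Levels are FPKM, fragment numbers scaled by transcript length and by library size, which allow comparison between genes. Both mice of a genotype are merged into 1 FPKM value in the authors' table. No value below therefore has a replicate error, no difference has a replicate check, and none was tested. The depth of the libraries is unknown. Differences are given as log2 ratios of the authors' FPKM values, *miR-21-/-* over *miR-21+/+*, without a pseudocount, and a gene was counted as past the limit at 2-fold or more. The locus shared by *Mir21* and its host *Vmp1* was listed at 42.5 FPKM in *miR-21+/+* and 68.2 FPKM in *miR-21-/-* tissue, which is the long host transcript and does not check the genotype.

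The mature microRNA that the *miR-21-/-* mice lack is shown with its seed, bases 2 to 8, in capitals (RefSeq).
mmu-miR-21a-5p: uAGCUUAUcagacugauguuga
Its 7-base match in a transcript reads ATAAGCT. This match was absent from the longest annotated 3′ UTR of every one of the 10 genes, while 6.10% of the 19915 genes with an annotated 3′ UTR held it. The shorter match TAAGCT, which 20.8% of those genes hold, occurred once among the 10, in the 3′ UTR of *Csn1s1* (428 bases).

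STAT proteins bind the GAS motif, TTCNNNGAA, which reads the same on both strands. RefSeq promoters (GRCm38.p6, 250 bases before to 50 bases after the start) were at hand for 6 of the 10 genes and not for *Csn1s2b*, *Csn3*, *Xdh* and *Btn1a1*. They are shown from 120 bases before to 30 bases after the start, with any GAS motif in capitals, because genes of a single STAT5-driven family differed unequally between genotypes. The windows lie at chr5:87666088-87666237 (plus strand) for *Csn1s1*, chr5:87774330-87774479 (plus) for *Csn1s2a*, chr5:87699396-87699545 (minus) for *Csn2*, chr11:6638620-6638769 (minus) for *Wap*, chr15:98482654-98482803 (minus) for *Lalba* and chr7:79149031-79149180 (minus) for *Mfge8*.
Csn1s1: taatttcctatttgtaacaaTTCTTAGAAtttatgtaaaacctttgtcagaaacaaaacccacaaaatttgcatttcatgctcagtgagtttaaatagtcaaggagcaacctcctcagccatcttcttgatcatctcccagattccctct
Csn1s2a: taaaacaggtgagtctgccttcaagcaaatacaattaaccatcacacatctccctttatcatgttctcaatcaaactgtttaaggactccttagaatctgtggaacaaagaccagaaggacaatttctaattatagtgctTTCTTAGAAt
Csn2: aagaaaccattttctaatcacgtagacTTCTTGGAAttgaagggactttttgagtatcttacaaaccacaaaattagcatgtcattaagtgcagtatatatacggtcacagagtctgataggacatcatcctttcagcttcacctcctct
Wap: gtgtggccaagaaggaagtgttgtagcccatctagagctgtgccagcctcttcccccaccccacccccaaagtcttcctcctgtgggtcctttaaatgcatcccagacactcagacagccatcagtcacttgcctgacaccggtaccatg
Lalba: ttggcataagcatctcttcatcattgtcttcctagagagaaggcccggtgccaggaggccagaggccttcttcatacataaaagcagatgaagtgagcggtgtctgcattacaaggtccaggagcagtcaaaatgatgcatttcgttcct
Mfge8: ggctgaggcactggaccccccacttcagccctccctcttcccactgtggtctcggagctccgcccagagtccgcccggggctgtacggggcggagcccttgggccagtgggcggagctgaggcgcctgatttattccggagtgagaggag
The motif was found in 3 of the 6 promoters of 300 bases, against 8.30% of the 32851 promoters in the table. In *Csn1s1* the site TTCTTAGAA began 100 bases before the start, in *Csn2* the site TTCTTGGAA began 93 bases before it, and in *Csn1s2a* the site TTCTTAGAA began 20 bases after it. A match describes the letters only. The 2 promoters with the motif at about the same distance upstream belong to *Csn1s1* and *Csn2*, whose deposited values were higher and lower in *miR-21-/-* tissue (both lower with equal sums over all loci or with the luminal median at 0), and the absence of a match says nothing about the factor.

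Of the 10 genes, 4 were lower in *miR-21-/-* tissue by 2-fold or more, and none was higher by that much. The 4 were *Csn1s2a*, *Wap*, *Csn1s2b* and *Csn2*. The other 6 were within 2-fold, with *Lalba* lower and *Csn3*, *Xdh*, *Btn1a1*, *Csn1s1* and *Mfge8* higher in *miR-21-/-* tissue. Among all 17746 named loci above 0 FPKM in both genotypes, 5.0% were lower by 2-fold or more and 4.67% were higher. The median log2 ratio of the 10 genes was −0.26, beside −0.03 for all of those loci. With the deposited values the 10 genes had no shared direction, since 5 were higher and 5 lower. This depended on the scaling of the FPKM columns. With equal sums over all loci all 10 were lower, and with the median of the luminal markers at 0 all but *Mfge8* (0.08) were lower. These scalings shift every log2 ratio by −0.63 and −0.52. The 95th percentile of the deposited ratios was 0.49 among named loci above 5 FPKM in either genotype. Most of those loci are therefore lower under both scalings as well, and these counts are not particular to the 10 genes.

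**Figure D1:**
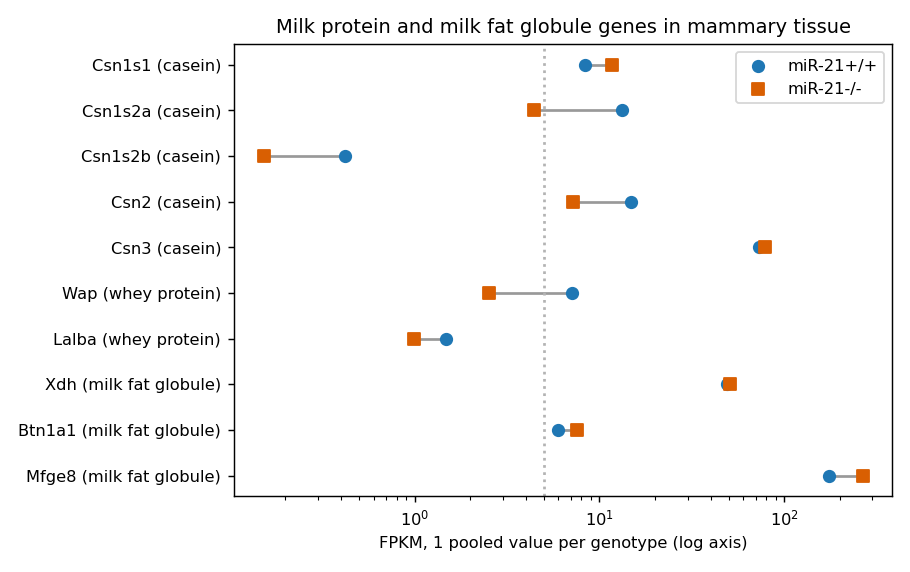
FPKM of each gene (log axis) in *miR-21+/+* (circles) and *miR-21-/-* tissue (squares), 1 pooled value per genotype joined by a line, with a dotted line at 5 FPKM. The long lines to the left are those of *Csn1s2a*, *Csn1s2b*, *Csn2* and *Wap*, while the symbols of *Csn3* at 73.2 and 79.0 FPKM and of *Xdh* at 49.2 and 51.0 FPKM nearly coincide.

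The study regarded genes above 5 FPKM in either genotype as reliable, and 8 of the 10 met this limit. *Csn1s2b* and *Lalba* did not. In this range 1.43% of 9661 named loci were lower by 2-fold or more and 1.25% were higher. *Csn1s2a* and *Wap* passed the limit through *miR-21+/+* tissue only, so some difference was built into their passing. *Csn2* was above 5 FPKM in both genotypes. Because ratios scatter more at low levels, the share of loci lower by 2-fold or more was also taken by level. It was 13.1% at a mean of up to 1 FPKM, the class of *Csn1s2b*. It was 4.82% between 1 and 5 FPKM, the class of *Wap* and *Lalba*, and 1.02% between 5 and 20 FPKM, the class of *Csn2*, *Csn1s2a*, *Csn1s1* and *Btn1a1*. Above 20 FPKM, where *Csn3*, *Xdh* and *Mfge8* lie, it was 1.09%. Between the 5th and 95th percentile, log2 ratios ran from −0.45 to 0.47 in the class of 5 to 20 FPKM, so that *Csn2* and *Csn1s2a* lay below it and *Csn1s1* slightly above it. In the class above 20 FPKM it ran from −0.55 to 0.45, with *Mfge8* above it and *Csn3* and *Xdh* inside.

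**Figure D2:**
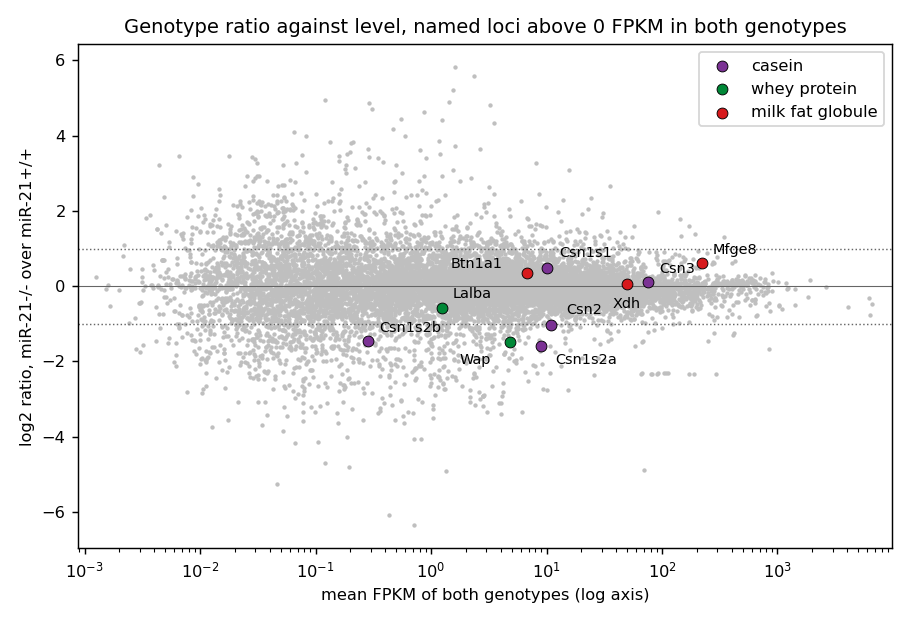
Log2 ratio of *miR-21-/-* over *miR-21+/+* against the mean FPKM of both genotypes (log axis) for 17746 named loci above 0 FPKM in both (grey), with the 10 milk genes coloured by class and dotted lines at 2-fold. *Csn1s2a*, *Csn2* and *Wap* lie at the lower edge of the cloud at their level, and *Csn1s2b* lies at a level where the cloud is wide.

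Of the 5 caseins, 3 were lower by 2-fold or more in *miR-21-/-* tissue. *Csn1s2a*, which encodes an alpha-s2-like casein, was at 13.3 FPKM in *miR-21+/+* and 4.44 FPKM in *miR-21-/-* tissue, a log2 ratio of −1.59. Its level was thus 3.0 times as high in *miR-21+/+* tissue, the largest difference of the 10 genes. *Csn2*, which encodes beta-casein, was at 14.8 FPKM in *miR-21+/+* and 7.21 FPKM in *miR-21-/-* tissue, a log2 ratio of −1.04. This is just past the limit, at a ratio of 2.05. *Csn1s2b*, the second alpha-s2-like casein, was at 0.420 and 0.152 FPKM, with a log2 ratio of −1.46. Both levels are low, and the gene ranked 14198th and 15256th among 21895 names in the table.

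*Csn1s1*, which encodes alpha-s1-casein, was higher with the deposited values. It was at 8.33 FPKM in *miR-21+/+* and 11.7 FPKM in *miR-21-/-* tissue, a log2 ratio of 0.49. *Csn3*, which encodes kappa-casein, was the most abundant casein in both genotypes, at 73.2 and 79.0 FPKM, and its log2 ratio was 0.11. It ranked 809th among all names in *miR-21+/+* and 669th in *miR-21-/-* tissue.

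With the deposited values the summed casein level differed little, at 110 FPKM in *miR-21+/+* and 103 FPKM in *miR-21-/-* tissue (log2 ratio of the sums −0.10). Its composition differed. *Csn3* accounted for 66.5% of summed casein FPKM in *miR-21+/+* tissue and for 77.1% in the absence of *miR-21*. The share of *Csn2* was 13.5% and 7.04%, and that of *Csn1s2a* 12.1% and 4.33%. *Csn1s1* held 7.56% and 11.4%. *Csn2* stood at 1.78 times the level of *Csn1s1* in *miR-21+/+* and at 0.616 times in *miR-21-/-* tissue. The order of levels was *Csn3*, *Csn2*, *Csn1s2a*, *Csn1s1* and *Csn1s2b* in *miR-21+/+* tissue. In *miR-21-/-* tissue *Csn1s1* stood in the second place, ahead of *Csn2* and *Csn1s2a*. Without values per mouse it cannot be said which neighbours in either order differ beyond their spread. Shares and ratios between caseins within a genotype do not depend on how the FPKM columns are scaled. The log2 ratio of the sums does, and shifts by −0.63 with equal sums over all loci and by −0.52 with the luminal median at 0.

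The 5 caseins lie in a cluster of 266 kb on chromosome 5 (mm9, 88095247 to 88361562). *Csn1s1* (88095247 to 88111601, plus strand) and *Csn2* (88121649 to 88128446, minus strand) face each other across a gap of 10.05 kb, the shortest in the cluster, and had log2 ratios of 0.49 and −1.04. *Csn1s2a* (88203592 to 88217822) and *Csn1s2b* (88237147 to 88253446), both on the plus strand and 19.3 kb apart, were lower together in *miR-21-/-* tissue. *Csn3* (88354542 to 88361562) lies 101 kb beyond *Csn1s2b*. The cluster stood alone in this region, since the other 12 named loci from 250 kb before to 250 kb after it reached at most 0.152 FPKM, the level of *Smr2* in *miR-21-/-* tissue, and 6 of them were listed at 0 in both genotypes. *4930432K09Rik*, *Gm7337* and *Odam* lie inside the cluster. *Odam*, an enamel protein gene between *Csn1s2b* and *Csn3*, was at 0.0479 and 0.116 FPKM.

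**Figure D3:**
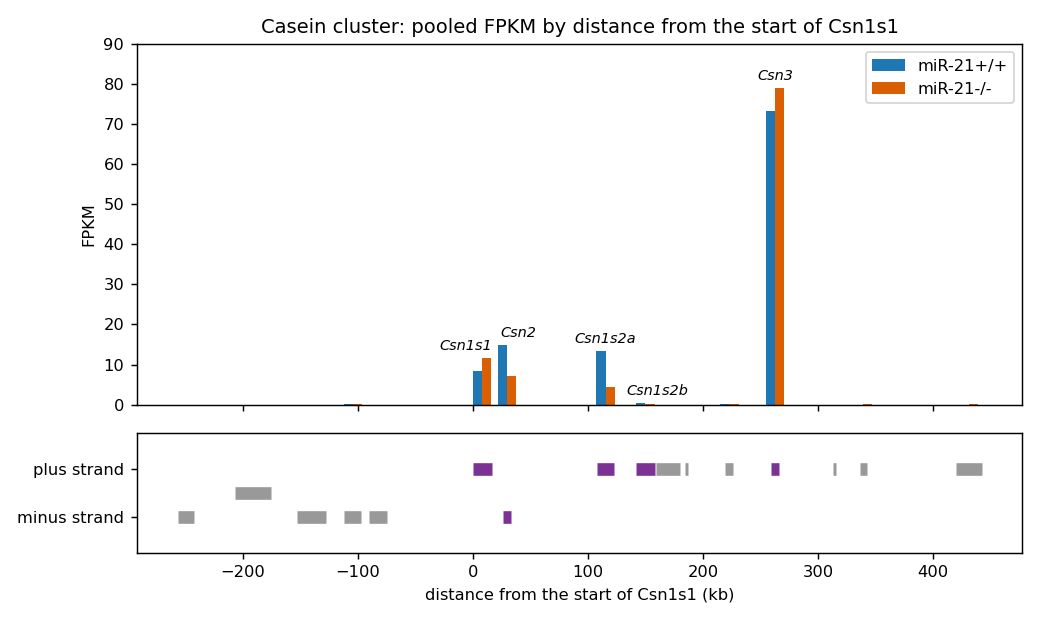
Pooled FPKM of named loci around the casein cluster in both genotypes (upper panel, bars from 0) and the extent and strand of each locus (lower panel, caseins in purple, strand not assigned for loci drawn in the middle), against the distance from the start of *Csn1s1* in kb. *Csn1s1* and *Csn2*, side by side at the left, are higher and lower in *miR-21-/-* tissue with these deposited values (both lower with equal sums over all loci or the luminal median at 0), and *Csn3* at the right reaches 73.2 and 79.0 FPKM.

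Both whey protein genes were lower in *miR-21-/-* tissue. *Wap* (chromosome 11, 6535486 to 6538652, minus strand), which encodes whey acidic protein, was at 7.09 FPKM in *miR-21+/+* and 2.54 FPKM in *miR-21-/-* tissue, a log2 ratio of −1.48. *Lalba* (chromosome 15, 98310831 to 98313114, minus strand) encodes alpha-lactalbumin, the regulatory subunit of lactose synthase. It was at 1.47 and 0.996 FPKM, a log2 ratio of −0.57 and between the 5th and 95th percentile of loci between 1 and 5 FPKM, −0.96 and 0.85. *B4galt1*, the catalytic partner of alpha-lactalbumin, was at 31.9 and 31.6 FPKM (log2 ratio −0.01).

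The 3 milk fat globule genes were all higher in *miR-21-/-* tissue with the deposited values, each by less than 2-fold, and all lower with equal sums over all loci. *Mfge8* (chromosome 7, 86278654 to 86293946, minus strand) encodes lactadherin, which binds phosphatidylserine on membranes and is also made by cells other than mammary epithelium. It was the most abundant of the 10 genes, at 174 FPKM in *miR-21+/+* and 265 FPKM in *miR-21-/-* tissue, a log2 ratio of 0.61. Its rank among all names was 307th and 178th. *Btn1a1* (chromosome 13, 23548862 to 23557770, minus strand), which encodes butyrophilin, was at 5.96 and 7.57 FPKM, a log2 ratio of 0.35. *Xdh* (chromosome 17, 74233248 to 74299760, minus strand), a purine-degrading enzyme that also serves in milk fat secretion, was at 49.2 and 51.0 FPKM, a log2 ratio of 0.05. The ratio of *Xdh* to *Btn1a1*, whose proteins act together at the apical membrane, was 8.26 in *miR-21+/+* and 6.73 in *miR-21-/-* tissue.

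Markers of the cell types in the tissue differed between the pooled values as well. All 10 markers of luminal epithelium, the cells that make milk, were higher in *miR-21-/-* tissue with the deposited values, by 0.15 (*Krt19*) to 0.84 (*Prom1*) with a median of 0.52, and their summed level was 693 FPKM in *miR-21+/+* and 938 FPKM in *miR-21-/-* tissue. *Krt8*, a luminal keratin, was at 119 and 197 FPKM. With these values all 8 myoepithelial markers were higher too (median 0.66, summed level 355 and 570.1 FPKM), while 7 of 8 adipocyte markers were lower (median −0.42, summed level 19196 and 14416 FPKM). All 8 lymphocyte markers were lower, with a median of −2.26. All 6 skeletal muscle markers were higher with these values, with a median of 0.79. Of the 4 markers of macrophages, cells that also make *Mfge8*, 1 was higher and 3 lower, from −0.26 to 0.75 with a median of −0.03. The 4 endothelial markers had a median of 0.03. In bulk tissue fewer cells of a type and less RNA per cell cannot be told apart, and the part of these marker differences in the milk gene values was not tested. The 3 milk fat globule genes, *Csn1s1* and *Csn3*, with ratios from 0.05 to 0.61, lay within or below the range of the luminal markers. With the deposited values *Csn1s2a*, *Csn1s2b*, *Csn2*, *Wap* and *Lalba* lay on the other side of 0 from all 10 luminal markers. With equal sums over all loci only *Krt8* and *Prom1* of the luminal markers stayed above 0. Set against the luminal median, the log2 ratios were −2.11 for *Csn1s2a*, −2.00 for *Wap*, −1.56 for *Csn2*, −1.09 for *Lalba*, −0.41 for *Csn3*, −0.03 for *Csn1s1* and 0.08 for *Mfge8*.

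Among the listed genes that control milk genes, 19 lay above 5 FPKM in either genotype. With the deposited values 12 of the 19 were higher and 7 lower in *miR-21-/-* tissue, with a median of 0.30. *Stat5a*, the STAT factor that drives casein genes, was at 22.8 and 39.0 FPKM (log2 ratio 0.78), and *Stat5b* at 20.5 and 26.0 FPKM (0.34). *Prlr*, the prolactin receptor, was at 31.5 and 43.2 FPKM (0.46), and *Elf5*, an ETS factor of alveolar cells, at 18.6 and 36.01 FPKM (0.95). *Cish*, a STAT5 target, was at 3.31 and 6.23 FPKM (0.91). *Socs2*, another STAT5 target, was at 7.54 and 9.27 FPKM (0.30). *Pgr*, the progesterone receptor, was the only one of the 19 past 2-fold, at 4.71 and 23.3 FPKM (2.30), and *Esr1*, the estrogen receptor, was the lowest, at 17.7 and 12.5 FPKM (−0.50). *Pgr* and *Cish* passed 5 FPKM in *miR-21-/-* tissue only. Among all named loci above that level in either genotype, 1.25% were higher by 2-fold or more and 1.43% were lower. *Ghr*, the most abundant of the 19, was at 237 and 184 FPKM (−0.36). The table's test status was not OK for *Stat5a*, *Esr1*, *Socs2* and *Nr3c1* of this list. The same holds for *Pecam1* of the endothelial markers above, and for *Acaca*, *Dgat1*, *Gpam* and *Cd36* of the fat lists below. These genes are kept in the counts and medians. The status was OK for all 10 milk genes. With equal sums over all loci, and with the luminal median at 0, *Prlr*, *Stat5b*, *Socs2*, *Jak2*, *Nfib* and *Cebpb* turned to the lower side. The median of the 19 turned with them. *Id2* turned with equal sums over all loci only. *Stat5a*, *Elf5*, *Cish*, *Gata3* and *Pgr* remained higher under both.

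The other parts of milk synthesis differed by group. Among 13 genes of lactose synthesis and milk ion transport above 5 FPKM, none was past 2-fold in either direction, and the ratios ran from −0.15 (*Pgm2*) to 0.35 (*Aqp5*) with a median of −0.01. *Slc12a2*, the most abundant of the 13, was at 136 and 155 FPKM (0.19). Of 16 milk fat synthesis genes 15 were lower, none by 2-fold, with a median of −0.56, the lowest value for *Elovl6* (−0.91) and the only higher one for *Gpam* (0.42). *Scd1*, a desaturase and the most abundant of them, was at 4857 and 3332 FPKM. *Fasn*, fatty acid synthase, was at 965 and 708 FPKM. These genes are active in adipocytes as well, whose markers had a median of −0.42. Among all 9661 named loci above 5 FPKM in either genotype, 1.25% were higher by 2-fold or more and 1.43% were lower. Of 10 other fat globule and lipid droplet genes, 2 were higher by 2-fold or more. These were *Muc15*, a membrane mucin, at 12.6 and 48.6 FPKM (1.95), and *Muc1* at 4.09 and 8.21 FPKM (1.00). Another 2 were lower by as much, *Cidea*, a lipid droplet protein of fat, at 52.3 and 19.7 FPKM (−1.41) and *Fabp3* at 9.76 and 4.52 FPKM (−1.11). *Muc1* and *Fabp3* were above 5 FPKM in 1 genotype only. *Cd36*, the most abundant of the 10, was at 718 and 557 FPKM (−0.37). Among 6 other secreted proteins above 5 FPKM, *Expi*, a relative of *Wap*, was higher (106 and 278 FPKM, 1.40). *Ltf*, the milk iron-binding protein lactoferrin, was lower (99.6 and 36.6 FPKM, −1.44), as was *Glycam1* (136 and 4.63 FPKM, −4.88), which lymph node venules make as well. *Trf*, the most abundant of the 6, was at 676 and 520 FPKM (−0.38). *Wap* was lower and *Expi* higher under each scaling tried.

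**Figure D4:**
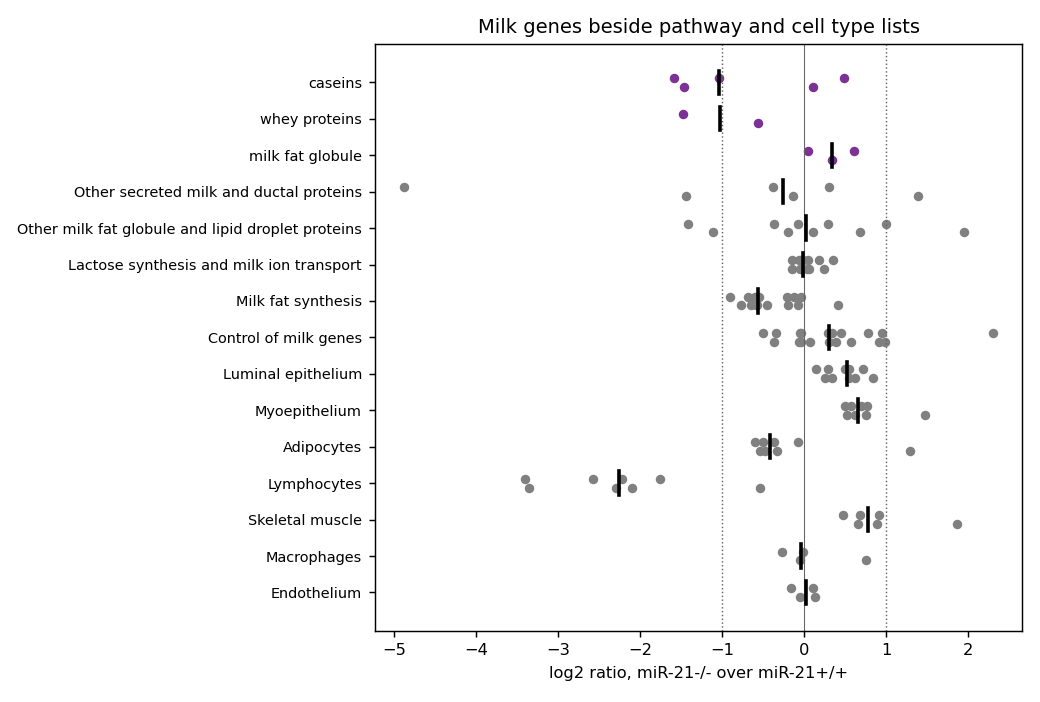
Log2 ratio of *miR-21-/-* over *miR-21+/+* for the milk genes (purple) and for the genes above 5 FPKM in either genotype of 12 pathway and cell type lists (grey), 1 point per gene with a black bar at each median and dotted lines at 2-fold. The 10 luminal points lie between 0.15 and 0.84, with *Csn1s1* (0.49) among them and the other caseins and both whey proteins to their left.

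The directions of the small differences depended on which scaling of the FPKM columns was used. Equal sums over named loci, and the median of named loci above 5 FPKM in either genotype at 0, turned none of the 10 genes. The sum of FPKM over all loci was 759295 in *miR-21+/+* and 1175603 in *miR-21-/-* tissue, but over named loci 380567 and 355385. Equal sums over all loci lower every log2 ratio by 0.63, which turned *Csn1s1*, *Csn3*, *Xdh*, *Btn1a1* and *Mfge8* to the lower side. *Csn1s2a*, *Csn1s2b*, *Csn2*, *Wap* and *Lalba* were lower under every scale tried.

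**Figure D5:**
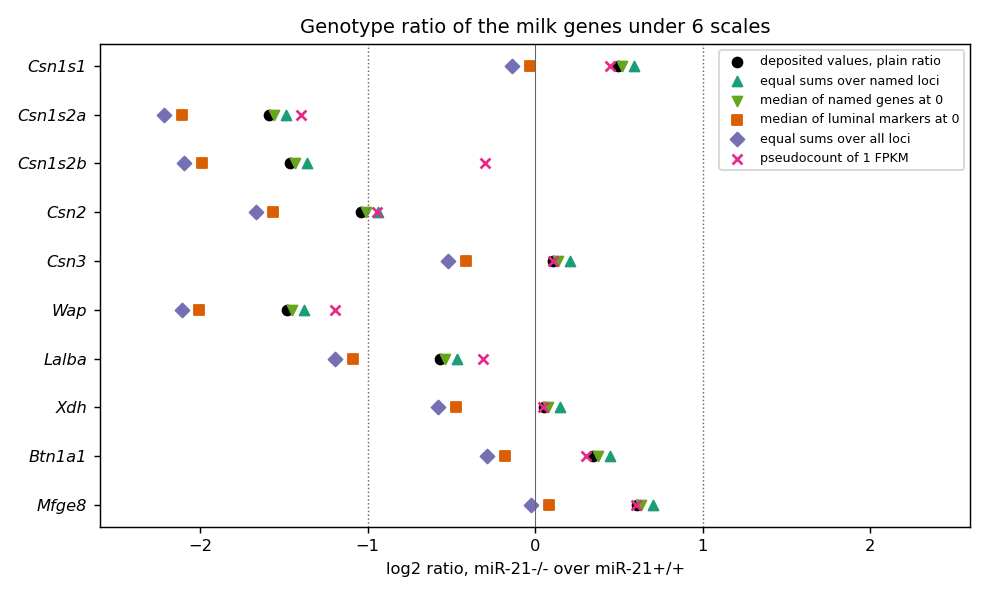
Log2 ratio of *miR-21-/-* over *miR-21+/+* for each of the 10 genes with the deposited values, under 4 scalings of the FPKM columns and with a pseudocount of 1 FPKM, with dotted lines at 2-fold. *Csn1s2a* and *Wap* stay left of the 2-fold line under all 6, and *Csn1s2b* moves to −0.30 with the pseudocount.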

How the data were processed

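Single-end Illumina HiSeq reads of poly(A) RNA were aligned to mm9 with TopHat by the authors, and FPKM values were estimated with Cufflinks. CASAVA is also named in the submitters' processing notes. Versions, the annotation and the normalization options are not given in the sources used here. The deposited Cuffdiff table holds 1 FPKM value per genotype that combines its 2 mice. Its fold change, test statistic, p-value and significance columns hold the authors' own comparison and were not used. Its test status was read as a quality mark of named genes and for an alternative. All 10 genes, the context lists (131 entries in 12 lists, of which *Wfdc18* and *Csnk* were not found under these names) and the thresholds were chosen with earlier results of these data known. *Lpl* stands in both the milk fat synthesis and the adipocyte list. A gene with several loci was represented by that with the highest mean FPKM, and for the shares of all genes 1 locus was kept per name. Genes named from the milk pathway lists and the luminal list are those with the highest and lowest ratios, the most abundant and some with a known part in milk synthesis. The other cell type lists are described as whole lists. Merged loci were kept in the lists, where *Krt14*, *Cd79a*, *Gata3*, *Scd2* and *Cd68* share a locus with another gene. Levels by FPKM class, casein shares and neighbouring genes were added after seeing the data. The limma fit planned for a table with a value per mouse could not be run. Table starts count from 0 and are printed counting from 1. Overlaps and 3′ UTRs came from GENCODE vM1 (NCBIM37, mm9), and transcripts were compared with blastn 2.17.0. Only the first match of each of the 10 genes to a gene outside them was kept. These matches, and those among the 10, were at 83.0% identity or less. Calculations used Python 3.11.15, numpy 2.4.6, pandas 2.3.3 and matplotlib 3.10.9. The counting step and the motif pattern were run on simulated data with planted cases, which checks the code only and not the values given here.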

Additional observations from a re-analysis of the deposited data

How the results depend on the processing

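No paired analysis was possible because each genotype has only 1 pooled value, and fits without each mouse were not run for the same reason. Depth is unknown, so the precision of low FPKM values cannot be given. Of 70 alternative log2 ratios of the 10 genes, 56 kept their direction and side of the 2-fold limit. For each gene 1 of these, the sum of all loci with its name, could not differ, because every gene had a single locus. With equal sums over all loci the ratios of *Csn1s1*, *Csn3*, *Xdh*, *Btn1a1* and *Mfge8* turned to −0.14, −0.52, −0.58, −0.28 and −0.025, and with the luminal median at 0 those of *Csn1s1*, *Csn3*, *Xdh* and *Btn1a1* turned to −0.031, −0.41, −0.47 and −0.18. These follow from the shift that each scaling gives every gene, −0.63 and −0.52. *Csn2* lost its place past 2-fold with a pseudocount of 1 FPKM (−0.95) and with equal sums over named loci (−0.94), and *Csn1s2b* with that pseudocount (−0.30). The median of the 10 genes was −0.89 and −0.78 under the first 2 scalings, −1.04 for the caseins alone and 0.051 without them. The count of genes lower by 2-fold, 4, was 2 with the pseudocount of 1 FPKM and 1 at a 3-fold limit, and the count of higher genes, 0, was 1 at 1.5-fold (*Mfge8*).
Among all named loci above 5 FPKM in either genotype, 121 were higher and 138 lower by 2-fold. These counts were 28 and 883 with equal sums over all loci, 37 and 589 with the luminal median at 0, 368 and 413 at 1.5-fold, 36 and 64 at 3-fold, 829 and 888 without a minimum, 224 and 280 above a mean of 1 FPKM, and 58 and 56 above 5 FPKM in both genotypes. With only the loci of test status OK, an alternative chosen after seeing the data, they were 116 and 126.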

Other observations

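The genes around the members outside the casein cluster were examined after the values above had been seen. Within 250 kb, 8 named loci above a mean of 1 FPKM flanked *Wap*, with a median log2 ratio of −0.04 and a range from −0.69 (*Myo1g*) to 0.33 (*Ramp3*), none as low as *Wap* itself at −1.48. *Lalba* had 8 such neighbours with a median of 0.04, *Btn1a1* 13 with a median of −0.08 and *Mfge8* 4 with a median of −0.02. The only such neighbour of *Xdh* was *Ehd3*, at 0.07. None of these neighbours was past 2-fold in either direction.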
